A study of Mus musculus with 20 samples.

Results

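The transcripts described here are those of the epidermal growth factor (EGF) receptor and its partners Erbb2 and Erbb3, of the EGF receptor ligands Areg, Ereg, Hbegf, Tgfa, Btc and Epgn, and of the receptor's feedback inhibitor Errfi1. They were taken by gene symbol and are 10 of the 25719 genes in a table of RNA sequencing counts from mouse keratinocytes. Keratinocytes, the main cell of the epidermis, were isolated from the skin of the ears and back and enriched by flow sorting, and RNA was taken from 2 M sorted cells per sample. The 20 samples form 4 groups of 5 mice. Conditional knockout mice (cKO, K14-CreERTam x Cyp11b1 L2/L2) had both Cyp11b1 alleles floxed together with a Cre that tamoxifen switches on, driven by the keratin 14 promoter and so meant for keratinocytes, and controls were littermates with the same floxed alleles and no Cre. All 20 mice received tamoxifen on 5 days, either topically (20 µl on the ear and 100 µl on the back) or systemically (100 µl of 10 mg/ml into the peritoneum), and cells were taken on day 6. Tamoxifen and the floxed alleles are thus shared by every group, while Cre is absent from the controls. Age and strain are not given in the labels. Corticosterone, the main glucocorticoid of mice, is made in its last step by the Cyp11b1 enzyme, and the study asked how loss of glucocorticoid synthesis in keratinocytes after topical or after systemic induction acts on the skin.

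Library totals ran from 11.6 M counts (systemic cKO 2) to 50.1 M counts (systemic cKO 4), and 3 counts, taken as the limit of detection, corresponded to between 0.0728 and 0.264 CPM (a gene's counts over the TMM-scaled total of its library). The targeted transcript Cyp11b1 had at most 6 counts in any library, with 7 counts in all in topical cKO, 9 in topical control, 4 in systemic cKO and 2 in systemic control, so its loss was not detectable at this depth. The basal keratins Krt5 and Krt14 were at 11371 CPM or more in each library. Sebaceous gland markers were present, with Scd1 at 167 to 3171 CPM and Mgst1 at 7.66 to 215 CPM, while Pparg reached at most 5.97 CPM. All 5 sebaceous genes were lower after injection than after topical treatment in both genotypes (median log2 fold change -0.84 in controls and -1.07 in cKO, 0 called). Markers of immune cells, of melanocytes and glia, of fibroblasts and of endothelium were low. In the immune list Ptprc, which marks leukocytes, was at 0 in 10 libraries, and Cd74, which antigen-presenting cells make, was at 4.16 to 27.5 CPM. In the melanocyte and glia list Sox10 was at 0 in 15 libraries, and Pmel, a melanosome gene, was at 3.84 to 14.1 CPM, with Dct also present in each library. Predicted genes with satellite-like sequence (12 in the table) summed to more than 50 CPM in 6 libraries, which were all 5 systemic controls and systemic cKO 2. No systemic control lay below that line, so that with this signal as a term in the model the systemic genotype difference comes from cKO 2 against the 5 controls. A list of 12 immediate early and heat shock genes that respond to tissue dissociation was summed over library totals, without TMM scaling. It came to 26907 to 37061 CPM in the topical libraries and to 41035 to 63376 CPM in the systemic ones. On TMM-scaled totals these ranges overlap, since systemic control 6 had a TMM factor of 1.52 and topical control 3 one of 0.860.

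The EGF receptor is a tyrosine kinase at the cell surface that pairs with itself or with ERBB2 when a ligand binds, and signals through RAS and MAP kinases, PI3 kinase and STAT3. Its ligands are made as membrane-anchored precursors and are released by proteases such as ADAM17 and ADAM10, so that a keratinocyte can stimulate itself and its neighbours. In skin this signalling is known for driving keratinocyte proliferation, migration into wounds and hair follicle growth, and for restraining inflammation. ERRFI1, also known as MIG6, is induced by receptor activity and binds the receptor's kinase domain to shut it off.

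Of the 6 ligand genes, 4 lie side by side on chromosome 5 (GRCm38, GENCODE annotation): Epgn at chr5:91027464-91035215, Ereg at chr5:91074622-91093646, Areg at chr5:91139599-91148432, all on the plus strand, and Btc at chr5:91357261-91402994 on the minus strand. They span 375.531 kb and are the only 4 protein-coding genes inside that interval. Areg, Ereg and Btc had their highest mean in systemic cKO, but so did Egfr, Erbb2, Erbb3 and Hbegf outside the cluster. Epgn, inside it, was highest in topical cKO. The upstream sequences of the cluster are shown where a RefSeq (GRCm38.p6) promoter entry was matched. That was the case for 7 of the 10 genes and not for Erbb3, Ereg and Hbegf. Capitals mark matches to the cAMP response element (CRE) TGACGTCA, its shorter cores TGACG or CGTCA, the AP-1 motif TGAGTCA or TGACTCA, and TATAAA, each searched on both strands, and the shorter cores overlap the full CRE. The Epgn stretch is 197 bases long, since the bases nearest its RefSeq start fall inside the gene's GENCODE span.
Areg, chr5:91139349-91139598, plus strand: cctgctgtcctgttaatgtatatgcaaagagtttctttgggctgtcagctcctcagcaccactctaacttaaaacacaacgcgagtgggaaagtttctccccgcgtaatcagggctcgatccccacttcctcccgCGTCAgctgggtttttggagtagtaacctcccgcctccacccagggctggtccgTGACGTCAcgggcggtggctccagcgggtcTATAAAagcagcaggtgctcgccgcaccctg
Btc, chr5:91402995-91403244, minus strand: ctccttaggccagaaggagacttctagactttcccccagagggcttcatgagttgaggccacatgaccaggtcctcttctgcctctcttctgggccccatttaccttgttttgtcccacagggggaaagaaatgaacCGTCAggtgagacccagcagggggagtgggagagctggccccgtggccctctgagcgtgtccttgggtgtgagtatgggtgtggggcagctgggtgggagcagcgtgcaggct
Epgn, chr5:91027267-91027463, plus strand: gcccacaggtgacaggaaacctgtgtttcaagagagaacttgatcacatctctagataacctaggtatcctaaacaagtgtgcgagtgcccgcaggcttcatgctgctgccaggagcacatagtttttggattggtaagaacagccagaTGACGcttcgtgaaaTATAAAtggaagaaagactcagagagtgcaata

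The Areg sequence held the full CRE with its first base 61 bases before the transcription start, a shorter core at 115 bases and TATAAA at 31 bases. In Btc a single shorter core lay at 113 bases, and in Epgn a shorter core lay at 101 bases and TATAAA at 86 bases before the RefSeq start. Epgn also held the glucocorticoid receptor core AGAACA (or TGTTCT on the other strand) at 113 bases, which is not capitalised. None of the 7 matched sequences held the AP-1 motif or the full glucocorticoid element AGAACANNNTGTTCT. Among 32851 mouse promoters of 250 bases, 1.55% held the full CRE, 17.8% a shorter core, 4.46% the AP-1 motif, 7.59% TATAAA, 16.1% the glucocorticoid core and 0.00913% the full glucocorticoid element. These matches describe letters in a window and are not evidence of binding.

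All 10 transcripts passed the filter on low counts and were tested, 9 of them with at least 20 counts in each library and Btc with 0 to 31. Levels between genes were compared as CPM per kilobase of exon. On that scale the mean over 20 libraries was 87.5 for Errfi1, 45.0 for Hbegf, 28.2 for Epgn, 27.5 for Erbb2, 9.99 for Erbb3, 4.66 for Areg, 3.72 for Egfr, 1.64 for Ereg, 1.43 for Tgfa and 0.106 for Btc. Erbb2 was above Erbb3 in 20 of 20 libraries and Tgfa above Btc in 20 of 20. Epgn exceeded Erbb2 in 9 of 20 libraries, Areg exceeded Egfr in 11 and Ereg exceeded Tgfa in 8, so these neighbours are not ordered beyond their spread. Errfi1 was above Hbegf in 17 libraries and Hbegf above Epgn in 15.

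**Figure D1:**
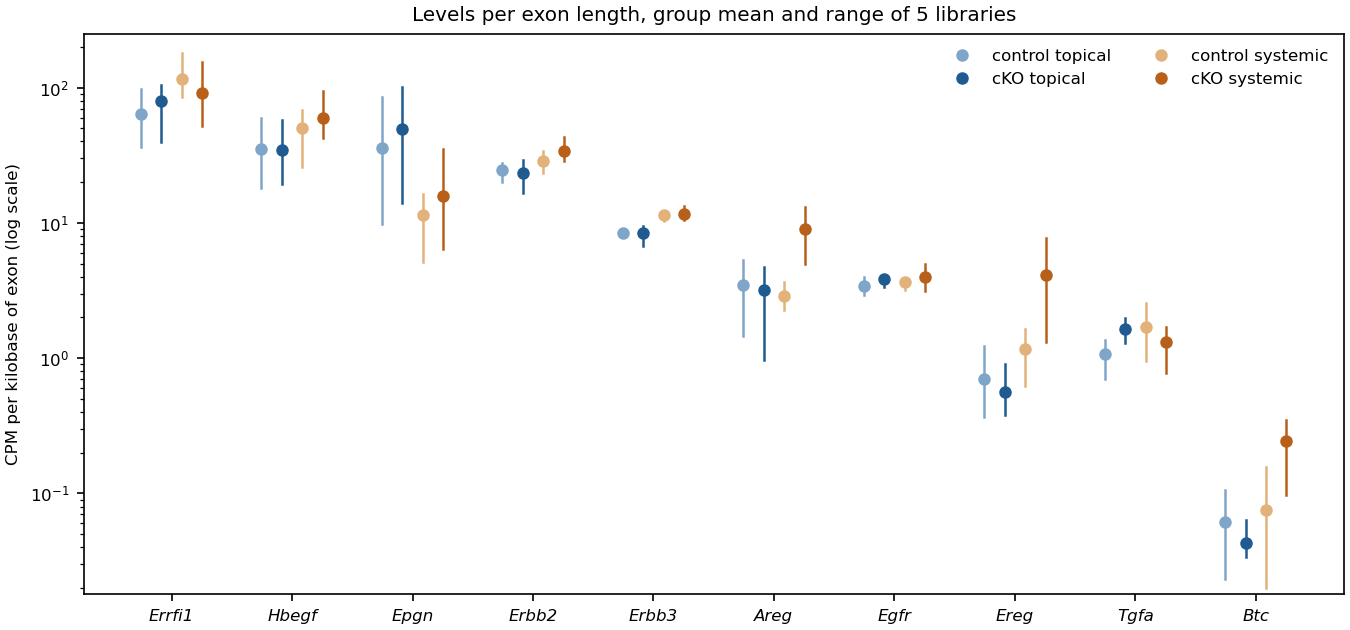
Level of each transcript in CPM per kilobase of exon (log axis), as the mean of 5 libraries per group (point) with the lowest and highest library (line). Errfi1 stands highest and Btc lowest, with 1 systemic control library of Btc at 0, below the axis. The systemic cKO mean is the highest for Areg, Ereg and Btc, and also for Egfr, Erbb2, Erbb3 and Hbegf.

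The 3 receptors had a small spread between mice of a group, and most ligands a larger one. On the log2(CPM + 1) scale the SD within groups was 0.13 for Erbb3, 0.17 for Egfr and 0.23 for Erbb2, against 0.55 for Areg, 0.60 for Hbegf, 0.61 for Ereg and 0.97 for Epgn, with Tgfa at 0.41. Errfi1 had an SD of 0.56. Btc had 0.23, a value held down by the pseudocount of 1 CPM at its low level. Hbegf and Epgn together made up most of the summed ligand level per kilobase in each group. Hbegf took 41.2 ± 9.26% in topical cKO, 49.4 ± 13.8% in topical control, 66.2 ± 14.6% in systemic cKO and 72.6 ± 10.97% in systemic control (SD, n = 5 mice each), and Epgn took 52.0 ± 10.3%, 43.1 ± 14.2%, 17.9 ± 12.7% and 18.5 ± 9.79% in the same order. The share of Areg was 9.80 ± 2.60% in systemic cKO and between 3.56% and 4.72% in the 3 other groups, and that of Ereg was 4.34 ± 2.37% in systemic cKO and between 0.812% and 1.91% elsewhere. The sum of the 6 ligands was 90.0 ± 47.7, 76.6 ± 37.6, 90.3 ± 21.7 and 67.6 ± 19.3 CPM per kilobase in those 4 groups.

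**Figure D2:**
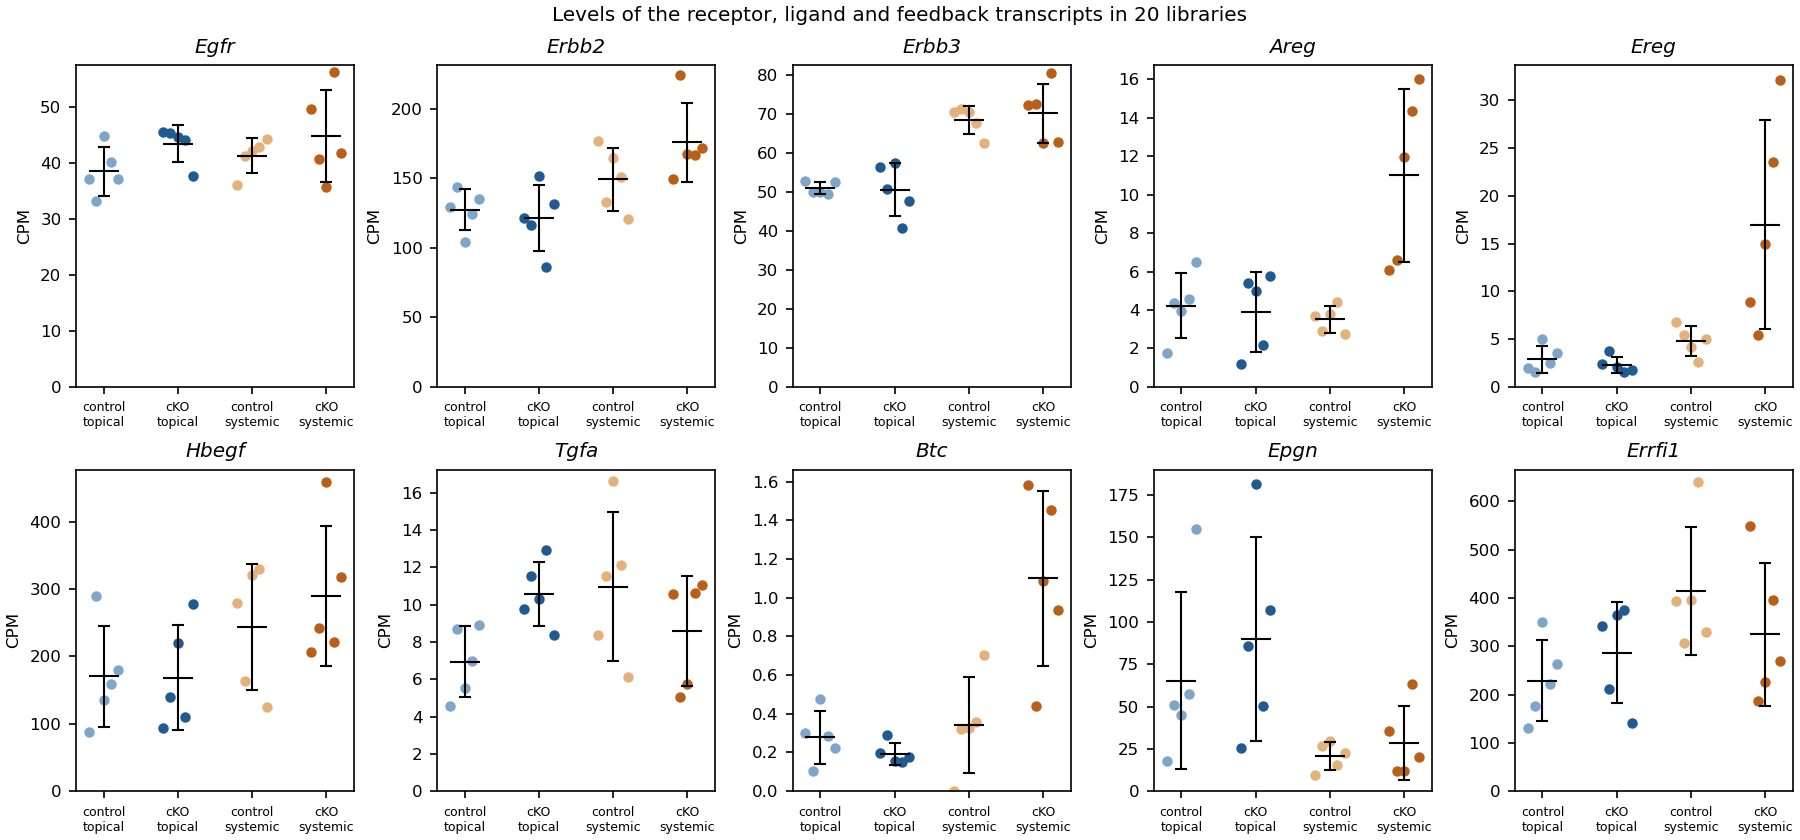
CPM of the 10 transcripts in each of 20 libraries (points), with the mean and SD of each group of 5 (bars), each panel on its own linear axis from 0. The 5 systemic cKO libraries lie above the 5 systemic controls for Areg, and 4 of the 5 do so for Ereg and Btc.

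Comparing systemic cKO with systemic control asked how the genotype acts after injection. The ligand transcripts Areg and Ereg were higher in cKO, by 3.15-fold and 3.51-fold. They were the 2 of 10 called at an adjusted p under 0.05, beside a background of 1.89% of 12424 genes called in that comparison. The median log2 fold change of the 10 genes was 0.24, against -0.0045 over all genes tested.

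Areg encodes amphiregulin, an abundant autocrine growth factor of keratinocytes. Its level was 6.07, 6.62, 12.0, 14.3 and 16.0 CPM in the systemic cKO libraries (2, 4, 5, 6 and 7) and 3.70, 2.91, 3.82, 4.43 and 2.74 CPM in the systemic controls (1, 3, 4, 5 and 6). The groups did not overlap, with cKO 2 and 4 nearest to the controls. The means were 11.003 ± 4.49 and 3.52 ± 0.695 CPM, which differ by 1.66 on the log2 scale (SE 0.38, adjusted p 0.0236). Topical libraries spread more widely than the systemic controls, at 1.17, 5.41, 4.998, 2.19 and 5.75 CPM in cKO (2, 3, 4, 5 and 7) and 1.76, 4.36, 3.96, 4.57 and 6.502 CPM in controls (1, 3, 5, 6 and 7). Topical control 7 lay above the lowest systemic cKO library, and the other 4 systemic cKO libraries were above all 15 libraries of the other groups.

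Ereg encodes epiregulin, a ligand that binds both the EGF receptor and ERBB4. It was at 8.89, 5.43, 14.9, 23.5 and 32.1 CPM in systemic cKO and 6.83, 5.44, 4.15, 2.57 and 5.02 CPM in systemic control, in the same order of libraries. Here the groups overlapped through cKO 4, which lay below systemic controls 1 and 3. The means were 16.97 ± 10.9 and 4.80 ± 1.58 CPM, which differ by 1.81 on the log2 scale (SE 0.39, adjusted p 0.0184). Topical libraries had 2.43, 3.74, 2.08, 1.56 and 1.74 CPM in cKO (mean 2.31 ± 0.869) and 1.97, 1.52, 5.05, 2.50 and 3.55 CPM in control (mean 2.92 ± 1.41), a range below that of the systemic cKO libraries. An antisense gene, Gm19610, overlaps Ereg on the opposite strand and is not found by that symbol among the 25719 genes counted. Whether counting used the strand is not given, so reads of the pair cannot be told apart.

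Btc, the ligand betacellulin, was close to the detection limit. The systemic cKO libraries had 1.58, 0.440, 1.09, 1.45 and 0.937 CPM (18, 18, 31, 23 and 15 counts) and the systemic controls 0, 0.323, 0.329, 0.357 and 0.704 CPM. Topical libraries had 0.196, 0.288, 0.154, 0.153 and 0.174 CPM in cKO and 0.302, 0.105, 0.478, 0.285 and 0.222 CPM in control. The lowest systemic cKO library, number 4, lay below the highest systemic control, number 6. For Btc the systemic log2 fold change was 1.51 (SE 0.49, adjusted p 0.116), which missed the threshold. Btc reached the filter's line of 0.585 CPM in 4 systemic cKO libraries, 1 systemic control and no topical library, so that it was tested only through the group in which it was high.

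The other 7 transcripts were not called in the systemic comparison. Erbb2 averaged 176 ± 28.4 CPM in cKO against 149 ± 22.7 CPM in control (log2 fold change 0.24, SE 0.17), Erbb3 at 70.2 ± 7.56 and 68.5 ± 3.58 CPM (0.034, SE 0.12), and Egfr at 44.9 ± 8.15 and 41.4 ± 3.10 CPM (0.12, SE 0.12). Log2 fold changes were 0.25 for Hbegf, 0.45 for Epgn, -0.36 for Tgfa and -0.35 for Errfi1, with adjusted p from 0.563 to 0.801.

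The satellite-like split runs with genotype in these libraries, and its part in the result cannot be told apart from genotype. With satellite-like CPM over 50 as a term in the model, the log2 fold change was 0.80 for Areg (SE 0.62) and 0.88 for Ereg (SE 0.63), both with an adjusted p of 0.999967, and no gene of the 12424 was called. In cKO 2, the cKO library on the satellite-like side, Areg was at 6.07 CPM and Ereg at 8.89 CPM, against at most 4.43 and 6.83 CPM in the 5 controls on that side. The calls also rested on single libraries: neither gene was called without cKO 6, cKO 7 or control 4, and 1 of them was called without cKO 5 or control 3, 5 or 6 (adjusted p up to 0.0753 for Areg and 0.0657 for Ereg, both without cKO 6).

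Single genes of other lists were also called in this comparison, where 1.89% of all genes were called. Of the 12 dissociation genes, 1 was called (8.33%), the AP-1 subunit Fosb, at 1003 ± 377 CPM in systemic cKO and 307 ± 112 CPM in systemic control (log2 fold change 1.71, adjusted p 0.00521). In that list 4 genes were higher and 8 lower, with a median log2 fold change of -0.21. The summed dissociation list ranged from 41035 to 59827 CPM in systemic cKO and from 48668 to 63376 CPM in systemic control. With the logarithm of that sum as a term, chosen after seeing the data, Areg had a log2 fold change of 1.67 (adjusted p 0.0562) and Ereg kept its call (adjusted p 0.0445). Of 6 suprabasal markers, 1 was called (16.7%), Lor, which encodes a cornified envelope protein (log2 fold change 2.62, adjusted p 0.0107). In that list 3 genes were higher and 3 lower, with a median of 0.0070. The summed list was at 16549 to 24427 CPM in cKO and 14360 to 32387 CPM in control. In bulk libraries, a change in the number of cells that hold a transcript and a change in RNA per cell cannot be told apart.

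The same question was put to the topical mice, in which tamoxifen had been applied to the skin. None of the 10 transcripts was called by edgeR or by the DESeq2 Wald test, with a background of 0.129% of genes called. With edgeR 1 of them, Tgfa, had an unadjusted p under 0.05, as did 703 of all 12424 genes. The median log2 fold change was -0.014, against 0.020 over all genes. Tgfa, transforming growth factor alpha, measured 9.75, 11.5, 10.3, 12.9 and 8.36 CPM in the cKO libraries (2, 3, 4, 5 and 7) and 4.59, 8.67, 5.53, 6.99 and 8.90 CPM in the controls (1, 3, 5, 6 and 7). The lowest cKO library, number 7, lay below the 2 highest controls, 3 and 7. Its log2 fold change was 0.61 (SE 0.26, adjusted p 0.808). Areg and Ereg, higher in systemic cKO, had log2 fold changes of -0.17 (SE 0.38) and -0.33 (SE 0.42) in the topical mice. Egfr had 0.18, Erbb2 -0.072, Erbb3 -0.011, Hbegf -0.018, Btc -0.49, Epgn 0.46 and Errfi1 0.33.

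The interaction tested whether the genotype effect differed between routes. No transcript of the 10 was called, with a background of 0.25%. An unadjusted p under 0.05 was reached by 1739 of all 12424 genes and by 4 of the 10: Ereg (log2 difference of effects 2.14, SE 0.58, adjusted p 0.0916), Areg (1.82, SE 0.53, adjusted p 0.121), Tgfa (-0.97, SE 0.37, adjusted p 0.230) and Btc (2.00, SE 0.78, adjusted p 0.238). Btc is given as a description, since it passed the filter only through systemic libraries. A larger effect of the genotype on Areg and Ereg in systemic than in topical mice was therefore not established at the threshold by edgeR. The DESeq2 Wald test called both, with adjusted p of 0.0450 for Areg and 0.0178 for Ereg, and edgeR called both without systemic cKO 2 (0.0391 and 0.0271). The other 6 differences lay between -0.68 (Errfi1) and 0.31 (Erbb2).

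**Figure D3:**
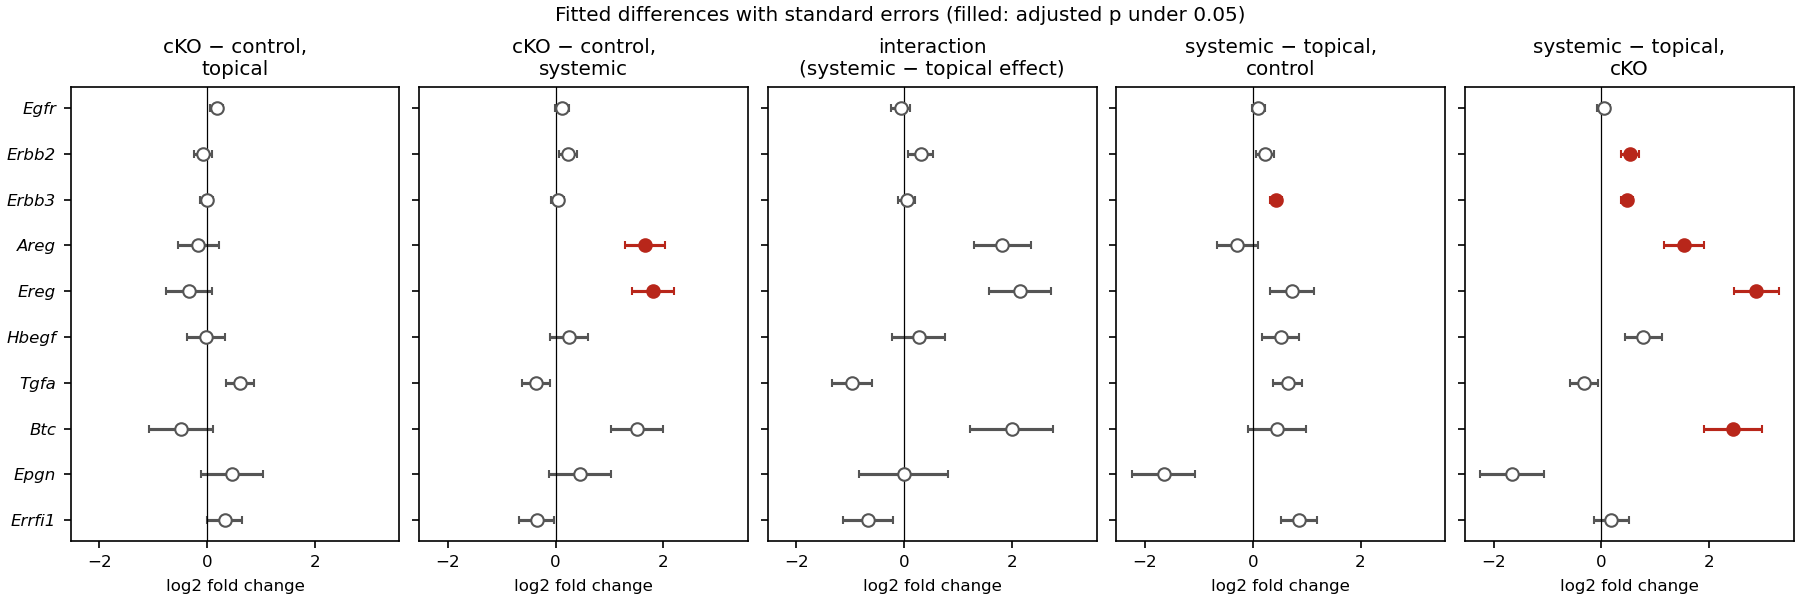
Fitted log2 fold change (point) with its standard error (line) for the 10 transcripts in 5 comparisons; filled points have an adjusted p under 0.05. Areg and Ereg are filled in the systemic genotype comparison, Erbb3 in both route comparisons, and Erbb2, Areg, Ereg and Btc in the cKO route comparison, where Btc passed the filter only through systemic libraries.

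The route comparisons describe the setting in which the genotypes were compared. In cKO mice the receptors Erbb2 and Erbb3 and the ligands Areg and Ereg were called higher after injection, which is 4 of the 9 transcripts other than Btc, with a background of 9.22% of genes called. Btc was called too, but it was tested only because systemic libraries reached the filter's line, and it is left out of that count. In controls 1 of the 10 was higher, Erbb3, a share below the background of 18.3%. The genotype and route comparisons share libraries, so that the systemic cKO values of Areg and Ereg enter both. The median log2 fold change of the 9 was 0.47 in cKO and 0.43 in controls, against -0.013 and 8.061e-04 over all genes.

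Erbb3 (chr10:128567523-128589652, minus strand), a receptor with little kinase activity of its own that binds neuregulins and signals when paired with ERBB2, separated the routes in both genotypes. In controls it was at 70.5, 71.3, 70.6, 67.7 and 62.6 CPM after injection (1, 3, 4, 5 and 6) and at 52.7, 49.9, 50.01, 49.6 and 52.5 CPM after topical treatment (1, 3, 5, 6 and 7). In cKO it was at 72.3, 72.6, 62.7, 80.6 and 62.9 CPM after injection and at 56.5, 50.7, 57.4, 40.7 and 47.7 CPM after topical treatment. The 10 systemic libraries were thus all above the 10 topical ones. The log2 fold change was 0.43 (SE 0.12, adjusted p 0.0137) in controls and 0.47 (SE 0.12, adjusted p 0.0112) in cKO, and the interaction was 0.045 (SE 0.16). Leaving out any 1 library kept both calls in 10 of 10 fits (adjusted p at most 0.0344 in controls and 0.0446 in cKO). With no filter on low counts both missed the threshold (adjusted p 0.0702 and 0.0504), as did the cKO difference in a fit of only the cKO libraries (0.0649).

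Erbb2 (chr11:98412470-98437716, plus strand), the family member without a known ligand and the preferred partner of the others, was at 149, 224, 167, 166 and 172 CPM in systemic cKO and 121, 116, 151, 86.2 and 132 CPM in topical cKO. The groups overlapped through 1 library on each side, systemic cKO 2 and topical cKO 4. Its log2 fold change was 0.54 (SE 0.17, adjusted p 0.0467), and with 1 library left out it was called in 2 of 10 fits, with an adjusted p of 0.140 without topical cKO 5. Systemic controls had 177, 133, 165, 151 and 121 CPM and topical controls 129, 144, 104, 125 and 135 CPM, which overlap (0.23, SE 0.17, adjusted p 0.360). Mien1 overlaps Erbb2 on the opposite strand and had 16.2 to 38.1 CPM, and annotated genes also lie opposite parts of Egfr, Tgfa and Errfi1. Egfr itself (chr11:16752203-16918158, plus strand) was between 33.2 and 56.4 CPM in all 20 libraries, with log2 fold changes from 0.042 to 0.18 in the 4 pairwise comparisons and no call.

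Among the ligands in cKO mice, Ereg differed most between the routes, with 16.97 ± 10.9 CPM after injection against 2.31 ± 0.869 CPM after topical treatment (log2 fold change 2.87, SE 0.42, adjusted p 1.815e-04). Areg had 11.003 ± 4.49 against 3.91 ± 2.08 CPM (1.54, SE 0.37, adjusted p 0.0111). Neither Areg nor Ereg overlapped between the routes, and with 1 library left out each was called in 10 of 10 fits. Btc had 1.10 ± 0.453 CPM after injection and 0.193 ± 0.056 CPM after topical treatment, from 105 and 20 counts in all. Its fitted difference of 2.45 (SE 0.54, adjusted p 0.00519) is given as a description, since no topical library reached the filter's line and the gene was not tested in a fit of only the cKO libraries. In controls Areg, Ereg and Btc had log2 fold changes of -0.28 (SE 0.38), 0.73 (SE 0.41) and 0.45 (SE 0.54), with adjusted p of 0.634, 0.219 and 0.599.

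Epgn encodes epigen, a ligand of low receptor affinity. Its route differences missed the threshold with edgeR in both genotypes. Topical libraries were at 25.2, 85.7, 181, 50.5 and 107 CPM in cKO and 17.7, 50.9, 45.1, 57.2 and 155 CPM in controls. Systemic libraries were at 35.6, 11.7, 11.6, 63.5 and 19.9 CPM in cKO and 9.32, 26.6, 29.3, 15.2 and 22.8 CPM in controls. The groups overlapped in both genotypes. The log2 fold change from topical to systemic was -1.66 (SE 0.59) in controls and -1.66 (SE 0.59) in cKO, with adjusted p of 0.0578 and 0.0879, both above the threshold. The DESeq2 Wald test called both (adjusted p 0.0301 and 0.0469), and so did edgeR without topical control 1 in controls (0.0329) and without systemic cKO 6 in cKO (0.0332). The stress keratins Krt6a, Krt6b and Krt16, which keratinocytes make after wounding, were lower after injection in cKO (log2 fold changes -3.80, -5.34 and -2.28, each called), and the summed list was at 6062 to 46918 CPM in topical cKO and 5939 to 11848 CPM in systemic cKO. These are 3 of 4 in the list (75%, against 9.22% of all genes). In controls 0 of the 4 were called, with 1 higher and 3 lower. There the sum was 9291 to 32539 CPM in topical and 7235 to 25233 CPM in systemic libraries. The part of the stress keratins in the Epgn values was not tested.

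Hbegf (chr18:36504927-36515805), whose precursor is also the diphtheria toxin receptor, had the highest mean level per kilobase of the ligands over the 20 libraries. It ranged from 93.6 to 278 CPM in topical cKO, 88.2 to 289 in topical control, 206 to 459 in systemic cKO and 125 to 329 in systemic control. Its route difference was 0.78 in cKO (SE 0.35, adjusted p 0.179) and 0.52 in controls (SE 0.35, adjusted p 0.315). Tgfa (chr6:86195223-86275719, plus strand) was at 10.96 ± 4.003 CPM in systemic and 6.94 ± 1.90 CPM in topical controls (log2 fold change 0.65, SE 0.26, adjusted p 0.0878) and had -0.32 (SE 0.26) in cKO. Errfi1 (chr4:150853919-150868892, plus strand), the feedback inhibitor, was at 131, 176, 350, 223 and 262 CPM in topical controls and 394, 307, 396, 640 and 330 CPM in systemic controls. These groups overlapped through topical control 5, and the log2 fold change was 0.86 (SE 0.33, adjusted p 0.0715). In cKO the means were 325 ± 148 CPM after injection and 287 ± 105 CPM after topical treatment (0.18, SE 0.33).

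The dissociation genes moved with the route. Of 12, 5 were called higher in each genotype (41.7%, against 18.3% of all genes in controls and 9.22% in cKO), among them Fos, Egr1 and Btg2 in both. On library totals, every systemic library had a higher summed list than every topical one. On TMM-scaled totals the routes overlap: systemic control 6 had a sum of 48668 CPM and a TMM factor of 1.52, and topical control 3 had 37061 CPM and 0.860. With that sum as a term, chosen after seeing the data, Ereg (adjusted p 0.00797) was called in the cKO route comparison, and Areg (log2 fold change 1.48, adjusted p 0.280), Erbb3 (0.47, adjusted p 0.304) and Erbb2 (0.14, adjusted p 0.865) were not. In controls Erbb3 then had 0.42 (adjusted p 0.386). The sums used for this term, on library totals, do not overlap between the routes. Route and dissociation sum therefore cannot be told apart in either genotype. The suprabasal markers, which rise as keratinocytes differentiate, also moved with the route in cKO: 6 of 6 had a positive log2 fold change (median 1.08) and Dsg1a (1.12), Dsc1 (1.26) and Lor (2.54) were called. Their sum was 10919 to 19108 CPM in topical cKO and 16549 to 24427 CPM in systemic cKO, and their part in the ligand and receptor differences was not tested. Satellite-like CPM over 50 as a term left the calls of Erbb2, Erbb3, Areg and Ereg in cKO, where 1 of 10 libraries is above that line, and ended the call of Erbb3 in controls, where the split is the same as the route. Route and satellite-like signal cannot be told apart in controls.

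The rest of the pathway was followed in lists of ERBB genes outside the 10, of ligand shedding, of receptor turnover and negative feedback, of the RAS-MAPK relay, of the PI3K-AKT and STAT relay, and of delayed MAPK feedback and target genes. In the topical comparison edgeR called 0 of the 61 list genes tested, against 0.129% of all genes, and the DESeq2 Wald test called 0. With edgeR 6 of the 61 had an unadjusted p under 0.05, as did 703 of all 12424 genes. In the systemic comparison it called 1 of 61, or 1.64%, which is near the 1.89% of all genes. That gene was Hras, a GTPase that carries the signal from the receptor to RAF, at 28.2 ± 6.78 CPM in systemic cKO and 15.6 ± 3.08 CPM in systemic control (log2 fold change 0.86, SE 0.18, adjusted p 0.0141), with overlapping groups. In controls Hras was lower after injection than after topical treatment, from 46.7 ± 5.69 to 15.6 ± 3.08 CPM (-1.58, SE 0.18, adjusted p 2.015e-05), and the interaction missed the threshold (1.07, SE 0.25, adjusted p 0.0605). With the satellite-like term the systemic difference of Hras was 0.20 (SE 0.27), not called, and it kept its call in 9 of 10 fits with 1 library left out (adjusted p 0.0508 without systemic control 4). The DESeq2 Wald test called 4 list genes in the systemic comparison (Hras, Akt1, Araf and Rhbdf2) and 2 in the interaction (Hras and Akt1). In the interaction edgeR called 0 and 12 had an unadjusted p under 0.05, as did 1739 of all 12424 genes.

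Of the ERBB genes outside the 10, Erbb4 was at 0 in 17 libraries and Nrg3, a neuregulin, at 0 in 18. Egf was at 0 to 1.40 CPM, and Nrg1 and Nrg4, neuregulins that bind ERBB3 or ERBB4, were at 0.342 to 6.02 and 2.55 to 6.60 CPM. Egf, Nrg1 and Nrg4 were the 3 of 6 tested, and 0 were called in any comparison. Between routes, 8 of the 61 list genes were called in controls (13.1%, against 18.3% of all genes) and 7 in cKO (11.5%, against 9.22%). Of 5 shedding genes, 1 was called in each genotype. Adam17, the main sheddase, was called higher after injection in cKO (48.3 ± 5.61 against 33.6 ± 2.81 CPM, log2 fold change 0.53, adjusted p 0.00982). Rhbdf1, which guides ADAM17 to the surface, was higher after injection in controls (46.8 ± 5.69 against 22.7 ± 4.27 CPM, 1.04, adjusted p 4.97e-04). In the genotype comparisons edgeR called 0 of the 5. An unadjusted p under 0.05 was reached by 1 in the topical and 2 in the systemic comparison, beside 703 and 1907 of all 12424 genes. The DESeq2 Wald test called Rhbdf2, a relative of Rhbdf1, in the systemic comparison (0.57, adjusted p 0.0616 with edgeR).

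Among 14 tested genes of turnover and feedback, 1 was called between routes in each genotype, where 9.22% of all genes in cKO and 18.3% in controls were called. Spry1, a Sprouty inhibitor of RAS signalling, was higher after injection in cKO (87.2 ± 38.3 against 41.5 ± 8.56 CPM, log2 fold change 1.07, adjusted p 0.0183). Cbl, a ubiquitin ligase that sends the receptor to degradation, was higher after injection in controls (0.51, adjusted p 0.0299). Of 17 RAS-MAPK relay genes, 2 were called higher in cKO, and 1 higher and 1 lower (Hras) in controls. Of 10 PI3K-AKT and STAT relay genes, 1 was called in each genotype. The relay adaptor Gab1 was higher in cKO (0.78, adjusted p 5.74e-04), and the kinase Araf in both genotypes (0.59 in controls and 0.36 in cKO, adjusted p 9.36e-04 and 0.0386). Akt1 was lower in cKO (-0.51, adjusted p 0.0244) and Plcg1, phospholipase C gamma, higher in controls (0.39, adjusted p 0.0299).

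The 12 delayed target genes, which rise when MAP kinase signalling persists, gave no call in either genotype comparison. In the topical comparison 11 of 12 had a positive log2 fold change with a median of 0.44 (0.020 over all genes). An unadjusted p under 0.05 was reached by 3 of them, as it was by 703 of all 12424 genes. In the same topical comparison suprabasal markers were lower for 5 of 6 (median -0.43). Stress keratins were higher for 4 of 4 (0.74) and fibroblast markers for 4 of 4 tested (1.35), with 0 called in these lists. The suprabasal sum was 10919 to 19108 CPM in topical cKO and 20589 to 29449 CPM in topical control. The part of these markers in the target gene values was not tested. In the systemic comparison 5 of the 12 delayed target genes were positive with a median of -0.18 (-0.0045 over all genes). Dusp6, a phosphatase that dampens ERK, had means of 55.0 and 35.7 CPM in topical cKO and control (0.63, SE 0.27, adjusted p 0.808), and at 43.4 and 57.0 CPM in the systemic groups (-0.40, SE 0.27, adjusted p 0.523). Between routes, 2 of the 12 were called lower in cKO, and 2 higher and 1 lower in controls, where 9.22% and 18.3% of all genes were called. The ETS factor Etv4 was lower after injection in both genotypes (-2.02 in controls and -1.74 in cKO, adjusted p 0.00420 and 0.00929), from means of 2.305 and 3.90 CPM. The phosphatase gene Dusp4 was lower in cKO (-1.60, adjusted p 0.0132). In controls Dusp5 (1.12, adjusted p 0.0340) and the AP-1 subunit Fosl1 (0.95, adjusted p 0.0450) were higher.

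**Figure D4:**
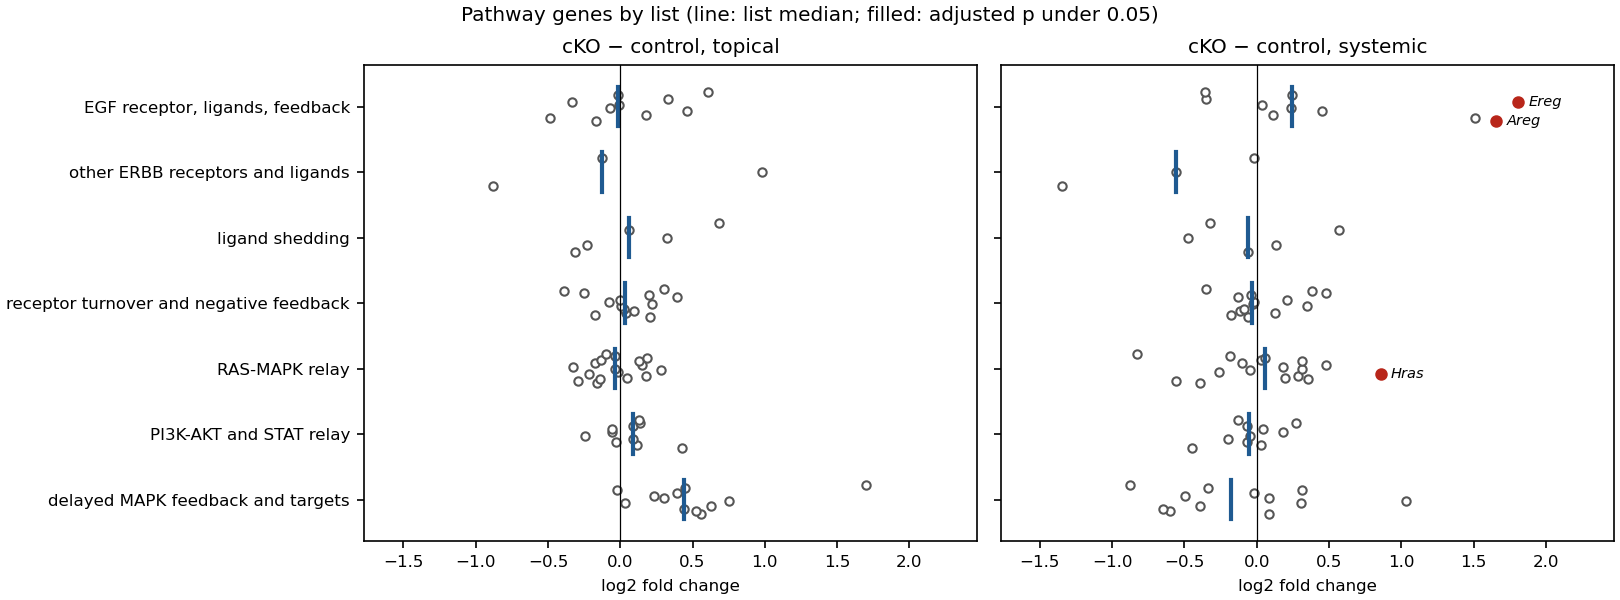
Log2 fold change of cKO over control for the 10 transcripts and for 6 pathway lists in the topical and the systemic comparison (points are genes, the blue line is the list median, filled points have an adjusted p under 0.05). Areg, Ereg and Hras are filled in the systemic panel, none in the topical one, and the delayed target genes have a median of 0.44 in the topical panel and -0.18 in the systemic one.

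Genes with the most similar pattern were sought for the receptor and the ligand with the highest level per kilobase, Erbb2 and Hbegf, and for Errfi1. The measure was Pearson's r of log2(CPM + 1) over 20 libraries after the mean of each group was taken off, among 11548 genes, and it is a description with no test. Erbb2 went most closely with Gsn, which encodes the actin-severing protein gelsolin (r = 0.96), followed by Spop, Krt80, Plcb3 and Jup, the desmosome component plakoglobin (0.90 each). Hbegf was closest to Arf6, a small GTPase of membrane traffic (0.93), then to Decr2 (0.86), Ifitm3, Hpgds and Nfkbia (0.83 each). Errfi1 was closest to Clic4 (0.93), Serpinb2 (0.90), Dyrk3 (0.88), Plet1 (0.87) and Slc6a14 (0.85). The libraries share tissue, depth and dissociation within each point, and these r values carry all 3.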

How the data were processed

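Whole-number read counts per gene were deposited by the authors as 1 table of raw counts without normalization, for 25719 genes and 20 libraries. STAR and featureCounts and the build GRCm38 (mm10) are named in the submitters' processing notes, without versions, and strand handling is not given in the sources used here. Per the labels' protocols, RNA was made into SmartSeq II libraries. Each column was matched to its sample by title, and 0 columns were left unmapped. Of the identifiers, 25665 were found in GENCODE M21 and 24997 with the same symbol, among them all 10 genes described. GENCODE supplied positions and exon lengths, and RefSeq the promoters.

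edgeR 4.0.16 (R 4.3.3) was run on the 20 libraries at once, after TMM scaling and filterByExpr (minimum count 10, minimum total 15), which kept 12424 genes. The quasi-likelihood model had a coefficient for each group and robust dispersion, tests were two-sided, and Benjamini-Hochberg adjustment covered every gene tested. Called means an adjusted p under 0.05. SE is the log2 fold change divided by the root of F. CPM uses TMM-scaled totals, except that summed lists use the library total. Intervals between mice are SDs. Counts come without molecular identifiers, so the limit of 3 counts covers counting error only. The fit was tested on simulated counts.

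Alternatives were DESeq2 1.42.0 (size factors, and its Wald test), no filter, fits restricted to the libraries of a comparison, the replicate number as a block, satellite-like CPM over 50 as a term, and leaving out each library. A dissociation term was added after seeing the data. The genes and lists were chosen with earlier results of these data known. The rule named all 10 genes, every pathway gene called in a genotype comparison or the interaction, up to 3 per list in a route comparison, and the 5 genes most like Erbb2, Hbegf and Errfi1. Marker genes were named after their values were seen. Besides the marker lists printed in the report, summed levels reached at most 30.6 CPM for epidermal immune cells, 32.0 for fibroblasts, 35.0 for melanocytes and Schwann cells, 6.60 for endothelium, 11.8 for hair follicle and 3458 for sebaceous gland. In the melanocyte and Schwann list 1 of 3 tested genes was called, higher after injection in controls. Basal keratinocyte genes had 0 calls in all comparisons.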

Additional observations from a re-analysis of the deposited data

Results flagged for a closer look

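In 3 of 40 sets of 5 libraries (10 transcripts in 4 groups), 1 library stood apart from the other 4 by Dixon's test, and chance gives about 1 in 20. The sets were Egfr in topical cKO, where library 7 was lowest at 37.7 CPM and the next was at 44.2 CPM; Epgn in topical control, where library 7 was highest at 155 CPM and the next was at 57.2 CPM; and Errfi1 in systemic control, where library 5 was highest at 640 CPM and the next was at 396 CPM. Without topical control 7 the route difference of Epgn in controls was -1.05 (adjusted p 0.216). Without systemic control 5 that of Errfi1 was 0.64 (adjusted p 0.183). Without topical cKO 7 the topical genotype difference of Egfr had an adjusted p of 0.785.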

How the results depend on the processing

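Counts of called transcripts among the 10 changed as follows. Cause was not tested unless stated. In the systemic genotype comparison, 2 became 1 in a fit of only the systemic libraries (Areg; Ereg adjusted p 0.0987), 1 with the dissociation term and 0 with the satellite-like term, and 0 to 2 when 1 library was left out. In the interaction, 0 became 2 with the DESeq2 Wald test (Areg and Ereg), and 0 to 2 when 1 library was left out. In the control route comparison, 1 became 3 with the Wald test (Erbb3, Epgn and Errfi1), 2 in a fit of only those libraries, and 0 with no filter (Erbb3 adjusted p 0.0702), with the satellite-like term and with the dissociation term, and 1 to 2 when 1 library was left out. In the cKO route comparison, 5 became 3 with no filter (Areg, Ereg and Btc), 2 in a fit of only those libraries, where Btc was not tested and fewer samples entered, and 2 with the dissociation term; the Wald test also called Epgn there (adjusted p 0.0469). Of these counts, Btc entered only through systemic libraries. The topical count was 0 under every alternative run. DESeq2 size factors changed no count by over 1.5 times (Erbb2 in the cKO route comparison, adjusted p 0.0515).

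Replicate numbers do not pair the mice by the labels, and the same-numbered libraries had correlations of deviations from the group means from -0.38 to 0.40. With the number as a block, the systemic count was 1 (Areg; Ereg 1.66, adjusted p 0.0655), no other call of the 10 changed, and Egfr in the cKO route comparison became -0.012.

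Signs that turned belong to differences that were not called. With the satellite-like term they were, in the systemic comparison, Hbegf -0.24 and Errfi1 0.41; in the interaction, Egfr 0.089, Hbegf -0.22, Epgn 0.32 and Errfi1 0.082; in controls between routes, Egfr -0.087, Areg 0.72, Btc -0.27 and Errfi1 -0.18; and Errfi1 in cKO between routes, -0.094. Epgn in the interaction was 0.0029 with the Wald test and 0.023 with no filter. With the dissociation term, topical Hbegf was 0.066, and between routes in controls Erbb2 was -0.20, Hbegf -0.10 and Tgfa -0.14. Leaving out 1 library gave ranges across 0 for topical Areg (-0.37 to 0.092), Erbb2 (-0.16 to 0.029), Erbb3 (-0.060 to 0.059) and Hbegf (-0.27 to 0.26), for systemic Epgn (-0.081 to 0.65) and Erbb3 (-0.018 to 0.074), for the interaction of Egfr (-0.15 to 0.013), Erbb3 (-0.023 to 0.096), Hbegf (-0.011 to 0.52) and Epgn (-0.62 to 0.42), for Btc in controls between routes (-0.10 to 0.72), and for Egfr (-0.052 to 0.11) and Errfi1 (-0.093 to 0.33) in cKO between routes.

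All 10 genes passed the filter, so no permutation test of a filtered gene was run. Over all genes, the systemic count of 235 (Areg and Ereg among them) was 563 with the Wald test, 35 with only the systemic libraries and 81 to 787 when 1 library was left out. Depth limits Btc, with at most 31 counts. Of the 61 pathway genes tested, 8 (13.1%, against 18.3% of all genes) were called between routes in controls (9 with the Wald test, 0 with the satellite-like and 0 with the dissociation term) and 7 (11.5%, against 9.22%) in cKO (12, 7 and 3).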
